A study of Homo sapiens with 4 samples.

Results

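The genes described here serve the display of peptides on major histocompatibility complex (MHC) class I molecules. They are 10 genes chosen by name for their role in that pathway: NLRC5, PSMB8, PSMB9, PSMB10, TAP1, TAP2, TAPBP, ERAP1, ERAP2 and B2M. Of these, 9 had a probe set with a single gene symbol, among 18323 genes with such a probe set in the series. All 9 passed the filter on dim probe sets and were tested among 15194 genes. TAP2 was listed for no probe set in the platform annotation and was not analysed here.

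RNA came from HK1 and HK1EBV, established lines of nasopharyngeal carcinoma, a tumour of epithelium. Each line was kept for 24 h with 110 µM caffeic acid phenethyl ester (CAPE), a compound of propolis that is known to inhibit NF-κB, or with 0.1% dimethyl sulfoxide (DMSO) as control. HK1EBV was read from its name as HK1 carrying Epstein-Barr virus, and the labels do not say whether it is 1 clone. There were 4 single-colour arrays, 1 for each combination of line and treatment.

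Class I molecules show fragments of a cell's own proteins, or of a virus inside it, to cytotoxic T cells. The proteasome cuts proteins into peptides, the TAP transporter carries them into the endoplasmic reticulum, aminopeptidases trim them, and tapasin helps load them onto a heavy chain paired with beta-2-microglobulin. Interferons are known to raise most of these genes through interferon response elements, and NF-κB and the coactivator NLRC5 act on several of the promoters.

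The promoters are shown first as a description, and no link between a motif and a difference between arrays was tested. RefSeq promoter windows of assembly GRCh38.p14, from 250 bases before to 50 bases after an annotated start, were held for 9 of the 10 genes, TAP2 included and NLRC5 not, and some genes had more than 1 start. The 150 bases before the first start are printed below, 5′ to 3′ on the gene's strand, for TAP1, TAPBP and B2M, which stood higher with CAPE in both lines, and for PSMB10, which stood lower. Capitals mark matches to GAAANNGAA, a core of the interferon response element, and to the NF-κB consensus, on either strand, and overlapping matches run together. The stretches lie at chr6:32853705-32853854 (minus strand) for TAP1, chr6:33314079-33314228 (minus) for TAPBP, chr15:44711367-44711516 (plus) for B2M and chr16:67936851-67937000 (minus) for PSMB10.
TAP1: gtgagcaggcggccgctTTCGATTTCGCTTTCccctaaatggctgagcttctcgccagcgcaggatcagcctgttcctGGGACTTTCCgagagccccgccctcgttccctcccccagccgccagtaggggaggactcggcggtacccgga
TAPBP: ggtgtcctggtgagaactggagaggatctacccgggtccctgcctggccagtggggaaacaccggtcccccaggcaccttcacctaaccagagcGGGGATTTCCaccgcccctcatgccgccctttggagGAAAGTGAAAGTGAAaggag
B2M: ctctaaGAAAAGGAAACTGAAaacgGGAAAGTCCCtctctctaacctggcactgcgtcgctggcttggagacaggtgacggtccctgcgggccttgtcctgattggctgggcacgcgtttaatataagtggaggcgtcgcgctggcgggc
PSMB10: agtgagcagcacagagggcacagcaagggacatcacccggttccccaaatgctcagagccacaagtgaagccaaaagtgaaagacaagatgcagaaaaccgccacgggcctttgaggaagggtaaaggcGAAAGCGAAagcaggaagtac

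GAAANNGAA was found for 8 of the 9 genes with a window, against 9.86% of 27305 genes with a window in the table (8.11% of 35116 windows). PSMB9 was the gene without a match in its window. Its window shares 13 bases with that of TAP1, its neighbour on the opposite strand, and the match to CCAAT, the core of the Y box, in each of the 2 windows lies in those shared bases. The NF-κB consensus was found for 4 genes, B2M, TAP1, TAPBP and ERAP1, against 13.3% of genes (11.3% of windows). CCAAT was found for 4 genes, B2M, TAP1, PSMB9 and ERAP1, against 39.7% of genes (34.6% of windows). TTCNNNGAA, the core of the interferon gamma activation site (GAS), was found for 2 genes, TAP1 and PSMB8, each at the second start, against 9.38% of genes (7.66% of windows). TGACTCA, the AP-1 site, was found for 0 genes, against 6.05% (4.95% of windows). Each match is a description of letters, and its part in the CAPE differences was not tested. The PSMB9 window holds neither the interferon core nor the NF-κB consensus. The TAP1 matches to these motifs lie outside the PSMB9 window, on the side before its start.

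**Figure D1:**
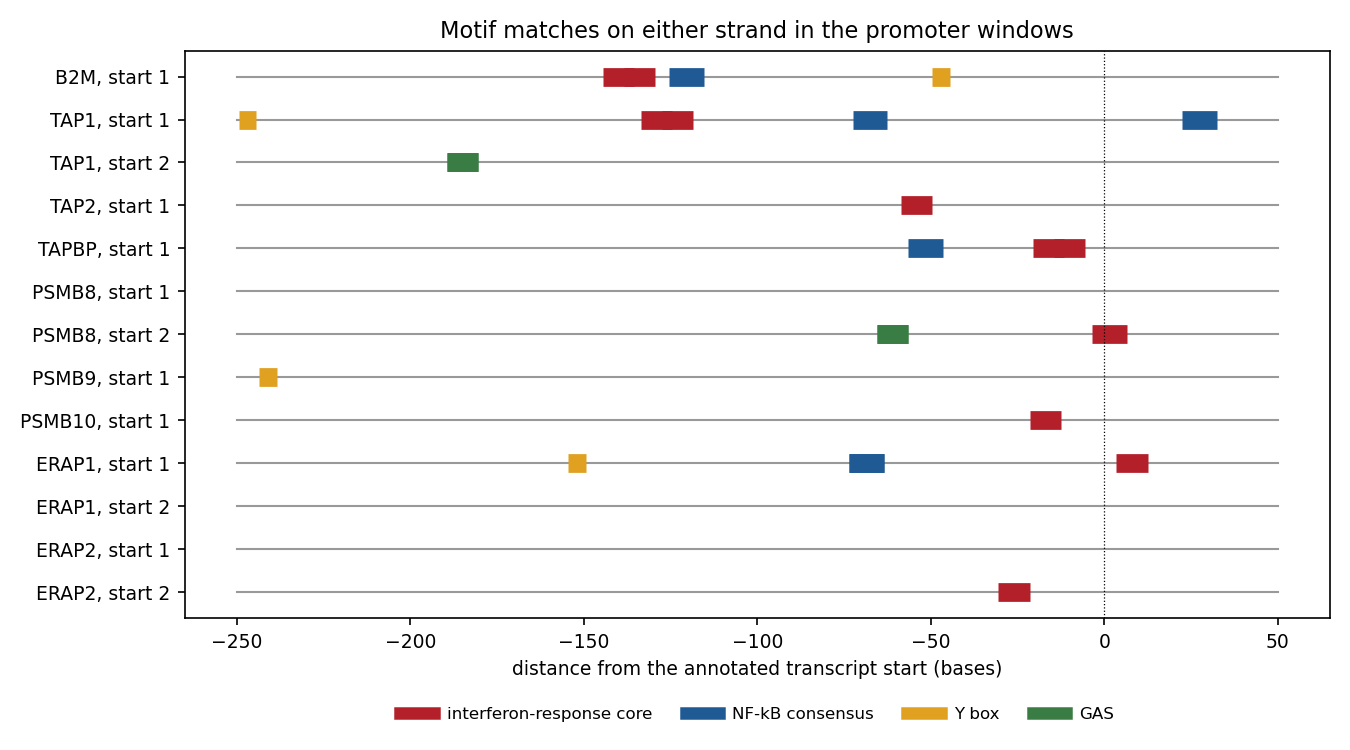
Matches to each motif (coloured blocks) along the promoter windows of 9 genes, drawn by distance in bases from the annotated start (0), with 1 line for each start. The interferon-response core lies within 150 bases before the start or just after it in 8 of the 9 genes, and the PSMB9 window has none.

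The arrays were close in overall level, with medians between 2.23 and 2.27 on the log2 scale. The series gives 1 array per group, so a difference within 1 line or 1 treatment has no replicate check, and precision is limited by the number of arrays, 4. The labels do not state whether separate cultures were used, and the p-values measure no spread between replicates. In the test used (limma on all genes, fitting line and treatment together, with 1 degree of freedom left), the lines serve as repeats for CAPE and the treatments as repeats for the line difference. The residual is the departure of the CAPE difference in 1 line from that in the other. It is then drawn by limma towards a variance pooled over all genes. JAK2, with 1 value on all 4 arrays, still had an SE of 0.11, so an SE near that value comes mostly from other genes. Of 10 epithelial markers 7 had a probe set, with array medians of 7.61 to 8.10 in log2. Their median line difference was 0.44, and on average 6 were higher in HK1EBV and 1, ITGB4, lower. In DMSO KRT5, KRT14, DSP and PKP1, 4 of 7, were at least 1.5-fold higher in HK1EBV. Of all genes 8.37% were that far apart in either direction. In CAPE 0 of 7 were, against 10.1%. ITGB4 differed by -0.18 in DMSO and -0.35 in CAPE, EPCAM by -0.25 and 0.47 and CDH1 by 0.40 and -0.13. KRT5 and DSP passed between the lines when 57 genes of zero residual were left out (limma adjusted p = 0.0134 and 0.0184), 2 of 7 against 11.6% of all genes. The part of these markers in the class I line differences was not tested. The medians of leukocyte, fibroblast and endothelial markers lay between 1.13 and 1.65. In bulk RNA, fewer cells with a transcript and less RNA per cell cannot be told apart.

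With CAPE, TAP1, TAPBP and B2M, which serve peptide transport and loading, stood higher in both lines, short of the test's threshold. TAP1, a subunit of the peptide transporter, was higher by 1.41-fold on average, TAPBP, which encodes tapasin, by 1.37-fold and B2M, the light chain of class I molecules, by 1.30-fold. Of the interferon-induced proteasome subunits PSMB9 was higher in both lines, and PSMB8 and PSMB10 were lower in both. In all, 6 of the 9 genes were higher on the CAPE array in both lines, where 32.1% of all genes tested were, and 2 were lower in both, against 29.5%. None (0) of the 9 passed the test over all genes (limma, Benjamini-Hochberg adjusted p below 0.05), in which 0.00658% of genes, a single one of 15194, passed for CAPE. At an unadjusted p under 0.05 there were 4 of the 9, and 2968 of all genes. The median difference of the 9 genes was 0.34 in HK1 and 0.25 in HK1EBV in log2 units, against 0.018 and -0.0032 for all genes tested. No gene named below changed past the threshold with CAPE unless this is stated.

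**Figure D2:**
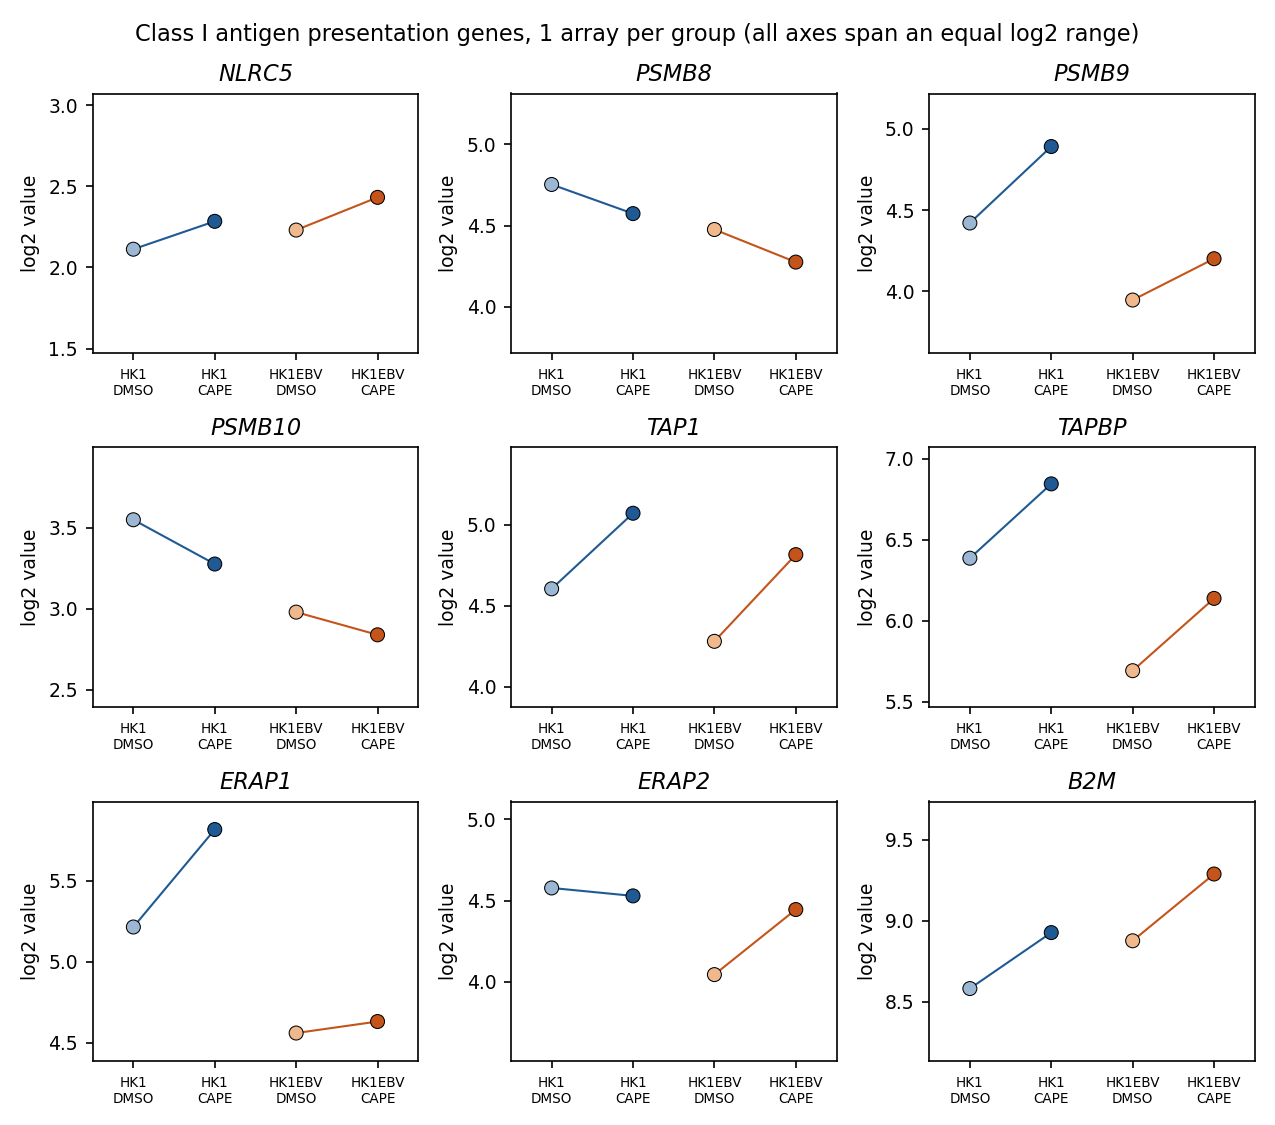
Log2 value of each of the 9 genes on the 4 arrays (1 point for each array, lines joining DMSO to CAPE within a cell line), on axes of equal height in log2 units. TAP1, TAPBP and B2M slope upwards in both lines, PSMB8 and PSMB10 downwards, and ERAP1 slopes upwards by 0.60 in HK1 and 0.07 in HK1EBV.

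TAP1 had log2 values of 4.60 on HK1 DMSO, 5.07 on HK1 CAPE, 4.28 on HK1EBV DMSO and 4.82 on HK1EBV CAPE. Both CAPE arrays lay above both DMSO arrays. The difference was 0.47 in HK1 and 0.53 in HK1EBV, with a mean of 0.50 ± 0.11 (moderated SE of limma, n = 2 lines, adjusted p = 0.116 with Benjamini-Hochberg adjustment). When 57 genes whose residual was exactly 0 were left out of the fit, TAP1 passed (limma adjusted p = 0.0394). In that fit it was the 1 gene of the 9 to pass, and 8.21% of all genes did. No other setting tried passed as many genes for CAPE (1243 in that fit). Over the settings tried its adjusted p ran from 0.0394 to 0.545.

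TAPBP had log2 values of 6.39 and 6.84 on the DMSO and CAPE arrays of HK1 and of 5.69 and 6.14 on those of HK1EBV. The treatments overlapped, because the HK1EBV CAPE array stood below the HK1 DMSO array, while the difference was much alike in the lines at 0.46 and 0.45. Its mean was 0.45 ± 0.11 (moderated SE, n = 2 lines, limma adjusted p = 0.129).

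B2M stood at 8.58 and 8.93 on the DMSO and CAPE arrays of HK1 and at 8.88 and 9.29 on those of HK1EBV. Again both CAPE arrays lay above both DMSO arrays, by a mean of 0.38 ± 0.11 (moderated SE, n = 2 lines, limma adjusted p = 0.169). NLRC5, the coactivator of class I genes, was dim, with 2.11 and 2.28 in HK1 and 2.23 and 2.43 in HK1EBV, values near the array medians. Its differences were 0.17 and 0.20. B2M, TAP1 and NLRC5 were the 3 of 9 genes with both CAPE arrays above both DMSO arrays, as 18.4% of all genes were, and 0 of 9 had both below, against 17.7%.

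The 3 subunits that replace the catalytic subunits of the standard proteasome after interferon went different ways. PSMB9 stood at 4.42 and 4.89 on the DMSO and CAPE arrays of HK1 and at 3.95 and 4.20 on those of HK1EBV, differences of 0.47 and 0.25. PSMB8 stood at 4.75 and 4.57 in HK1 and at 4.48 and 4.27 in HK1EBV, differences of -0.18 and -0.20. PSMB10 had 3.55 and 3.28 in HK1 and 2.98 and 2.84 in HK1EBV, differences of -0.27 and -0.14. Thus PSMB9 was higher and the other subunits lower with CAPE in both lines, and the treatments overlapped for each of the 3 when lines were pooled. The mean changes were 0.36 ± 0.12 for PSMB9, -0.19 ± 0.11 for PSMB8 and -0.21 ± 0.11 for PSMB10 (moderated SE, n = 2 lines), with limma adjusted p of 0.201, 0.429 and 0.408.

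The 2 aminopeptidases that trim peptides in the endoplasmic reticulum each differed in 1 line more than in the other. ERAP1 stood at 5.21 and 5.82 on the DMSO and CAPE arrays of HK1 and at 4.56 and 4.63 on those of HK1EBV, differences of 0.60 and 0.07. ERAP2 stood at 4.58 and 4.53 in HK1 and at 4.04 and 4.44 in HK1EBV, differences of -0.05 and 0.40. The contrast between the lines in these changes had no test, since no degree of freedom is left for it. ERAP1 in HK1 was the 1 difference of at least 1.5-fold with CAPE among the 9 genes, against 7.17% of all genes in HK1, and 0 of 9 reached it in HK1EBV, against 7.54%. For a 2-fold difference with CAPE the counts were 0 of 9 in HK1 and 0 of 9 in HK1EBV, against 1.36% and 1.22% of all genes.

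**Figure D3:**
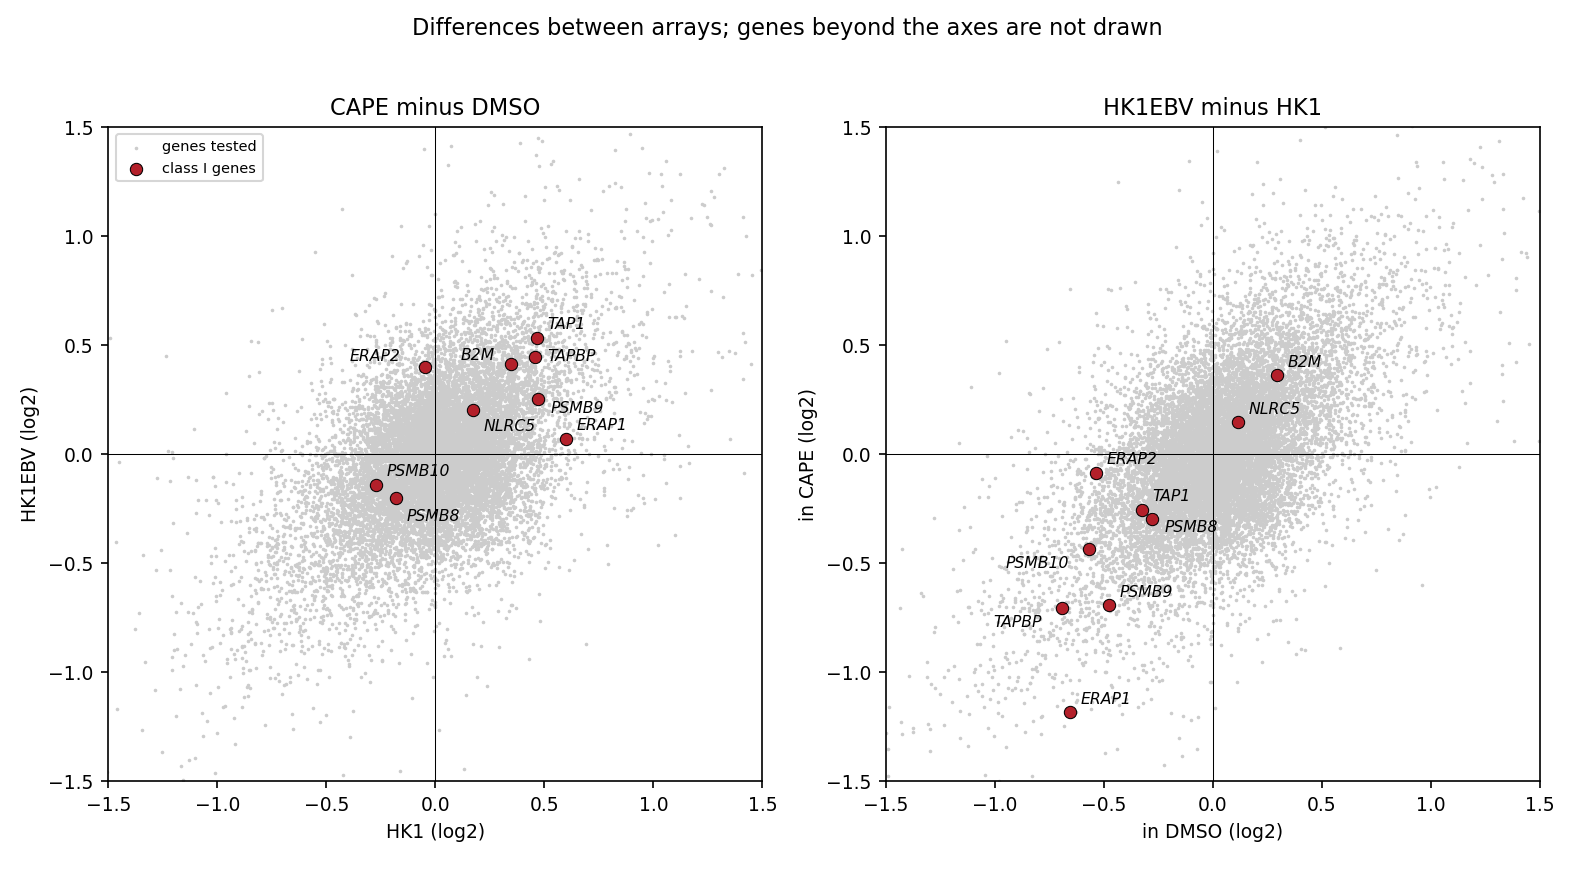
Left, the CAPE minus DMSO difference in HK1 (x axis) against HK1EBV (y axis), and right, the HK1EBV minus HK1 difference on DMSO arrays (x axis) against CAPE arrays (y axis), all in log2 units, with genes tested in grey and the 9 class I genes in red. With CAPE 6 of the 9 lie above 0 on both axes, against 32.1% of genes tested. Between the lines ERAP1 and TAPBP lie lowest of the 9 on both axes, and B2M and NLRC5 lie above 0.

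Between the lines, 7 of the 9 genes stood lower in HK1EBV than in HK1 when averaged over the treatments, as 7575 of the 15194 genes tested did. Both HK1EBV arrays lay below both HK1 arrays for 6 of the 9, against 20.9% of all genes. B2M and NLRC5 stood higher in HK1EBV. ERAP1 was 1.89-fold lower on average, TAPBP 1.62-fold and PSMB10 1.42-fold, and PSMB9 was lower by 0.58 in log2 units. None (0) of the 9 passed in the planned fit, where 2.90% of all genes passed (limma, Benjamini-Hochberg adjusted p below 0.05), and TAPBP lay just outside the threshold. Of the genes that passed, 200 were higher and 240 lower in HK1EBV, and with the arrays shifted to one median 865 were higher and 661 lower. At an unadjusted p under 0.05 there were 7 of the 9, and 3503 of all genes. Without the 57 genes of zero residual, TAPBP, ERAP1, PSMB9 and PSMB10 passed and were lower in HK1EBV, 4 of 9 against 11.6% of all genes. The median of the 9 genes was -0.47 on the DMSO arrays and -0.30 on the CAPE arrays, against 0.014 and -0.0048 for all genes tested.

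TAPBP differed between the lines by -0.69 in DMSO and -0.71 in CAPE, with a mean of -0.70 ± 0.11 (moderated SE, n = 2 treatments, limma adjusted p = 0.0505, or 0.00611 without the genes of zero residual). ERAP1 differed by -0.65 in DMSO and -1.18 in CAPE, with a mean of -0.92 ± 0.16 (n = 2 treatments, limma adjusted p = 0.0611, or 0.0035 without those genes). These 2 genes each had both HK1EBV arrays below both HK1 arrays.

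PSMB9 differed by -0.47 and -0.69 in DMSO and CAPE, a mean of -0.58 ± 0.12 (n = 2 treatments, limma adjusted p = 0.0769, or 0.0172 without the genes of zero residual). PSMB10 differed by -0.57 and -0.44, a mean of -0.50 ± 0.11 (limma adjusted p = 0.0891, or 0.0311). PSMB8 differed by -0.28 and -0.30 and ERAP2 by -0.53 and -0.08, and neither passed in any setting tried. In TAPBP, PSMB8, PSMB9, PSMB10, ERAP1 and ERAP2 both HK1EBV arrays lay below both HK1 arrays, 6 of 9 against 20.9% of all genes. TAPBP, PSMB8 and PSMB9 lie on chromosome 6, as does TAP1, for which the lines overlapped. ERAP1 and ERAP2 lie on chromosome 5 and PSMB10 on chromosome 16. The part of shared position in the count was not tested.

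TAP1 differed between the lines by -0.32 and -0.26, less than its change with CAPE, so that the HK1EBV CAPE array stood above the HK1 DMSO array. B2M was higher in HK1EBV by 0.29 in DMSO and 0.36 in CAPE, and NLRC5 by 0.12 and 0.15. For 0 of the 9 genes were both HK1EBV arrays above both HK1 arrays, as 21.4% of all genes were. In DMSO 2 of 9 genes, TAPBP and ERAP1, were at least 1.5-fold apart between the lines, against 8.37% of all genes, and in CAPE 3 of 9, with PSMB9 as the third, against 10.1%. ERAP1 in CAPE was the 1 gene at least 2-fold apart, against 2.05% of all genes, and 0 of 9 were in DMSO, against 1.87%.

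The standard proteasome subunits that PSMB8, PSMB9 and PSMB10 replace, PSMB5, PSMB6 and PSMB7, stood higher in HK1EBV, opposite to their counterparts. PSMB5 had log2 values of 6.95 and 7.26 on the DMSO and CAPE arrays of HK1 and of 7.57 and 7.73 on those of HK1EBV. PSMB6 had 6.58 and 6.61 in HK1 and 7.43 and 7.13 in HK1EBV, and PSMB7 had 8.01 and 7.64 in HK1 and 8.26 and 8.11 in HK1EBV. All 3 had both HK1EBV arrays above both HK1 arrays, as 21.4% of all genes did. In the list of 10 proteasome genes that holds them, 4 did, PSME1 included. Another 3, PSME4, POMP and PSMG2, had both HK1EBV arrays below both HK1 arrays, against 20.9% of all genes.

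The mean line differences were 0.54 for PSMB5, 0.69 for PSMB6 and 0.36 for PSMB7 (limma adjusted p = 0.0797, 0.0686 and 0.175). PSMB5 and PSMB6 passed without the genes of zero residual, at limma adjusted p of 0.0224 and 0.0093. Set against its counterpart on the same arrays, PSMB9 differed between the lines by -1.33 in DMSO and -1.22 in CAPE relative to PSMB6. PSMB8 differed by -0.89 and -0.77 relative to PSMB5, and PSMB10 by -0.82 and -0.90 relative to PSMB7. These values show unequal change of the paired subunits, and no test was run on them.

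**Figure D4:**
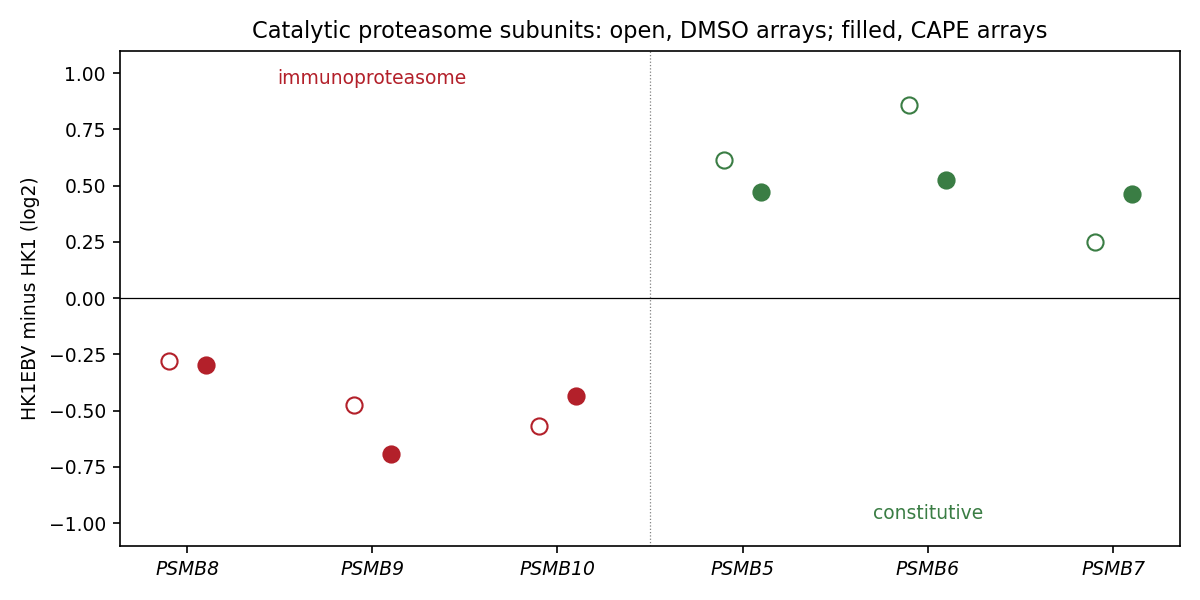
HK1EBV minus HK1 difference in log2 units for the 3 interferon-induced catalytic subunits (red) and their 3 standard counterparts (green), on DMSO arrays (open) and CAPE arrays (filled), 1 difference for each point. The red points lie between -0.28 and -0.69 and the green points between 0.25 and 0.86.

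Other genes of the pathway were taken from lists by role. Of 12 genes of loading and folding in the endoplasmic reticulum, 11 were tested, 9 of them were higher with CAPE in both lines and 0 lower in both, against 32.1% and 29.5% of all genes. The medians were 0.42 in HK1 and 0.39 in HK1EBV. CALR, which encodes the chaperone calreticulin of the peptide-loading complex, was higher by 0.56 and 0.34. HSPA5, a chaperone of the same compartment, was higher by 0.50 and 0.67, and its neighbour chaperone HSP90B1 by 0.68 and 0.43. HM13, the signal peptide peptidase that frees leader peptides, was higher by 0.49 and 0.73. In the planned fit 0 of the 11 passed for CAPE. Without the genes of zero residual HSPA5, HSP90B1 and HM13 passed (limma adjusted p = 0.0218, 0.0305 and 0.0206), 3 of 11 against 8.21% of all genes. Over the 10 settings tried these genes passed in 3, 3 and 4. TAPBPL, a relative of tapasin that edits peptides, had 0.52 in HK1 and -0.02 in HK1EBV. Between the lines UGGT1, which checks glycoprotein folding, differed by -0.38 and TAPBPL by -0.44 on average, and 0 of 11 passed.

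Of 10 further proteasome genes, all tested, 5 were lower with CAPE in both lines and 2 higher, against 29.5% and 32.1% of all genes, with medians of -0.17 and -0.15, and 0 passed for CAPE or between the lines. PSME3, a proteasome activator, differed by -0.17 and -0.52. Of the assembly chaperones, PSMG1 differed by -0.24 and -0.27, and PSMG2 by -0.23 and -0.25. PSMB7 differed by -0.37 and -0.15 and PSMB5 by 0.31 and 0.16.

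Peptidases of the cytosol trim or destroy peptides before transport. Of 8 tested from a list of 9, 5 were lower with CAPE in both lines and 0 higher in both, against 29.5% and 32.1% of all genes, and 0 passed. The medians were -0.34 and -0.14. The other 3 had opposite signs in the lines, with 0.14 and -0.12 for NPEPPS, -0.27 and 0.15 for NRDC, both named after their values were seen, and -0.20 and 0.14 for BLMH. LAP3, a leucine aminopeptidase, differed by -0.88 in HK1 and -0.44 in HK1EBV, and PREP, a prolyl endopeptidase, by -0.41 and -0.70. Both passed without the genes of zero residual (limma adjusted p = 0.0202 and 0.0318), 2 of 8 against 8.21% of all genes. Over the 10 settings tried LAP3 passed in 3 and PREP in 2. TPP2, a large peptidase, differed by -0.46 and -0.16, and IDE, the insulin-degrading enzyme, by -0.51 and -0.0033.

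Between the lines BLMH, the bleomycin hydrolase, was the 1 gene of the 8 to pass, where 2.90% of all genes did. It stood at 4.27 and 4.07 on the HK1 arrays and at 2.38 and 2.51 on the HK1EBV arrays, and was lower in HK1EBV by 1.72 ± 0.13 on average, or 3.30-fold (limma adjusted p = 0.0222). It did not pass without the filter on dim probe sets or without treatment as a term, where its highest adjusted p was 0.119. TPP2 was lower by a mean of 0.81 (limma adjusted p = 0.0517, or 0.00382 without the genes of zero residual).

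The regulators known to act on class I promoters had medians near 0 with CAPE, at -0.0074 in HK1 and -0.059 in HK1EBV over 16 tested of 19. IRF9, a subunit of the interferon-stimulated factor ISGF3, had CAPE differences of 0.27 (HK1) and 1.19 (HK1EBV). IRF2, a relative of the interferon regulatory factor IRF1, was higher by 0.33 and 0.61. NFYA, a subunit of the factor that binds the Y box, differed by -0.52 and -0.10, and EZH2, the methyltransferase of a repressive histone mark, by -0.47 and -0.17. None (0) of the 16 passed for CAPE in the planned fit. Without the genes of zero residual IRF9 passed (limma adjusted p = 0.0396), 1 of 16 against 8.21% of all genes. That was the 1 setting of 10 in which IRF9 passed for CAPE.

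IRF9 stood at 3.30 and 3.57 on the HK1 arrays and at 4.10 and 5.29 on the HK1EBV arrays, a mean line difference of 1.25 ± 0.23 (moderated SE, n = 2 treatments, limma adjusted p = 0.0665, or 0.00224 without the genes of zero residual). NFKB1, the p105 precursor of an NF-κB subunit, was lower in HK1EBV by 0.72 in DMSO and 0.71 in CAPE. It was the 1 of 16 regulators to pass between the lines (limma adjusted p = 0.0495), where 2.90% of all genes did. NFKB1 did not pass without the filter or without treatment as a term, with 0.174 as its highest limma adjusted p. EZH2 was higher by 0.59 (limma adjusted p = 0.0841, or 0.0182 without the genes of zero residual).

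Of 14 genes of interferon signalling 12 were tested, and 0 passed for CAPE. SOCS3, a feedback inhibitor of cytokine receptors, differed by 0.59 in HK1 and 0.13 in HK1EBV, and PTPN2, a phosphatase that acts on JAK kinases, by -0.35 and -0.41. Of the receptor kinases, TYK2 differed by 0.35 and 0.29 and JAK1 by 0.20 and 0.38. JAK2 had 1 value on all 4 arrays, so its probe set gives no difference.

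USP18, itself induced by interferon and a brake on its receptor, stood at 2.42 and 2.37 on the HK1 arrays and at 3.71 and 4.28 on the HK1EBV arrays. It was higher in HK1EBV by 1.60 ± 0.18 on average, or 3.03-fold. USP18 was the 1 of 12 to pass between the lines (limma adjusted p = 0.0363), where 2.90% of all genes did. Over the settings its limma adjusted p was at most 0.171, and it did not pass without the filter or without treatment as a term. SOCS3 was on the other side, lower in HK1EBV by 0.62 on average (limma adjusted p = 0.102, or 0.0204 without the genes of zero residual). Of the 12 interferon signalling genes 3 were higher and 8 lower in HK1EBV on average, with a median of -0.08, and of the 16 regulators 6 were higher and 10 lower.

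Of 12 class I heavy chain and class I-like genes 5 were tested, and the others were not analysed here. MR1, which presents vitamin B metabolites to T cells, stood at 5.08 and 5.69 on the DMSO and CAPE arrays of HK1 and at 5.07 and 5.72 on those of HK1EBV. Its mean CAPE change was 0.63 ± 0.11 (moderated SE, n = 2 lines, limma adjusted p = 0.0896). Without the genes of zero residual MR1 passed (limma adjusted p = 0.0149), 1 of 5 against 8.21% of all genes. Over the 10 settings tried MR1 passed in 4. MICA, a stress ligand of the receptor NKG2D, differed by -0.29 and 0.07, FCGRT, the neonatal Fc receptor chain, by -0.00084 and -0.40, and CD1D, which presents lipids, by -0.04 and -0.11.

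There were 6 HLA probe sets with several symbols, from 2 to 6 of them each, and all name class II genes, so no gene is named from them. Their log2 values lay between 0.865 and 2.32. Their CAPE differences ran from 0 to 0.22 in HK1 and from -0.09 to 0.48 in HK1EBV. Of 13 class II genes 8 were tested, with CAPE medians of 0.03 and 0.02, and CIITA, the class II coactivator, differed by 0.09 on average. HLA-DMA, a peptide editor of class II, stood at 1.62 and 2.28 on the DMSO and CAPE arrays of HK1 and at 2.05 and 2.90 on those of HK1EBV. It differed by 0.66 and 0.85 with CAPE (limma adjusted p = 0.0838). Without the genes of zero residual HLA-DMA passed (limma adjusted p = 0.00735), 1 of 8 against 8.21% of all genes. Over the 9 settings that held it HLA-DMA passed in 4. HLA-DOA, a modulator of that editor, differed by 0.37 and 0.05, its partner HLA-DOB by -0.14 and -0.0082, and CTSS, a protease of the class II path, by 0.0048 and -0.08.

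The marker lists of cell types that present antigen were read beside these values. The summed level of 11 leukocyte markers, on the linear scale, was 184 and 264 on the DMSO arrays of HK1 and HK1EBV and 394 and 550 on the CAPE arrays. CD68, a lysosomal protein of macrophages and other cells, made up most of it, at 7.28 and 8.51 in log2 in HK1 and 7.88 and 9.03 in HK1EBV. Without CD68 the sum lay between 27.6 and 29.5 on all 4 arrays. PTPRC, CD3E, CD2, MS4A1 and LYZ were below the filter on dim probe sets. The part of the CD68 difference in the class I values was not tested.

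**Figure D5:**
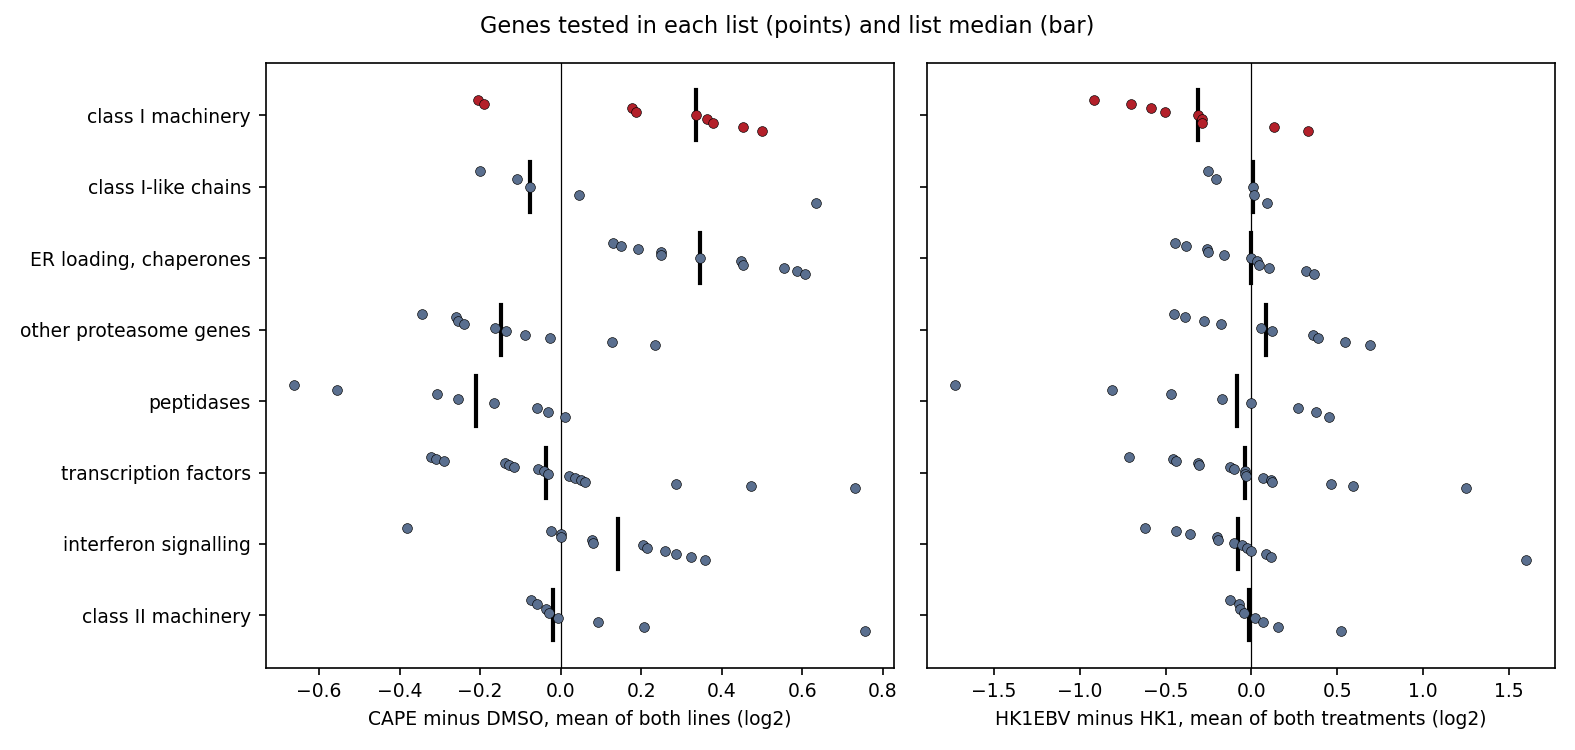
Left, the CAPE change averaged over both lines, and right, the HK1EBV minus HK1 difference averaged over both treatments, in log2 units, for each gene tested in the class I list (red) and in 7 related lists (blue), with the list median as a bar. The class I median is 0.34 for CAPE and -0.31 for the line difference, and the loading and chaperone list has 11 of 11 genes above 0 on the left.

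The genes whose pattern over the 4 arrays was closest were found by the Euclidean distance between log2 values centred on each gene's mean. For TAP1 they were SPHK1 at a distance of 0.0277, MFSD6 at 0.0374 and SLC67A1 at 0.0529. For PSMB9 they were SLC39A14 at 0.0343, STK25 at 0.0899 and EPG5 at 0.0950. For B2M they were CNIH4 at 0.0375, ERGIC3 at 0.0417 and CHMP5 at 0.0468. Distances over 4 arrays are a description.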

How the data were processed

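The deposited log2 values of 4 single-colour arrays were made by the authors with RMA, per the submitters' processing notes. RMA corrects background, brings arrays to one distribution and summarises probes. The sources used here do not give its version, the base of the log, any later centring or the genome build, and log2 was taken because RMA gives that scale. Per the labels' protocols, cDNA was made from 250 ng of RNA. Of 25800 probe sets, 18612 had 1 symbol, 954 several and 6234 none, and 18583 of the first matched the RefSeq gene table by Entrez number.

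A gene's brightest probe set was used, and each of the 9 genes had 1. Genes with a mean log2 of at least 0.997, the 25th percentile over probe sets, were tested. The test was limma 3.58.1 in R 4.3.3 (lmFit, eBayes), two-sided, with Benjamini-Hochberg adjustment over 15194 genes. It was tested on simulated data. Each SE is limma's moderated SE. Named genes were the 10 members and, of each related list, those that passed, up to 4 with the largest CAPE change and up to 2 with the largest line difference. Members and lists were chosen with earlier results of these data known. There were 11 alternatives, given in the closing section. Motifs were searched with Python 3.11.15, and the planned comparison of protein sequences was not made.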

Additional observations from a re-analysis of the deposited data

Results flagged for a closer look

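For 7 of the genes named, the CAPE change had opposite signs in HK1 and HK1EBV, as it had for 35.7% of all genes tested. With 1 array per group the difference between the lines was not tested for any of them. Among the class I genes it was ERAP2, with a CAPE change 0.45 higher in HK1EBV than in HK1. Of the related genes, the change in HK1EBV minus that in HK1 was 0.613 for USP18, 0.36 for MICA, 0.337 for BLMH, -0.33 for PSMB6, -0.541 for TAPBPL and -0.0836 for CTSS.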

How the results depend on the processing

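The count of genes that passed for CAPE, 1 in the planned fit, was 0 without the filter on dim probe sets, 894 with the filter at the 50th percentile, 1006 with arrays shifted to one median, 755 with quantile normalization, 7 with a trend in the variance prior, 379 with a robust prior, 1243 without genes of zero residual and 0 without the cell line as a block. At thresholds of 0.01 and 0.1 it was 0 and 544. The count between the lines, 440, was in the same order 0, 1296, 1526 and 1324, unchanged at 440 with the trend, 959 with the robust prior, 1756 without genes of zero residual and 0 without treatment as a block, and 0 and 1390 at the thresholds of 0.01 and 0.1. With probe sets averaged per gene the counts were 1 for CAPE and 489 between the lines. Of the 9 class I genes 0 passed for CAPE in these settings except TAP1 without genes of zero residual. Between the lines TAPBP passed in 7 of 10 settings, ERAP1 in 5 and PSMB9 and PSMB10 in 4 each. Of the related genes TPP2 passed between the lines in 7, PSMB6 and IRF9 in 5, EZH2 and SOCS3 in 4 and PSMB5 in 3. Leaving out the genes of zero residual gave the largest count in both comparisons. The mean differences of all 9 class I genes kept their sign in every setting, and only the shift to one median and quantile normalization could alter those values. The line difference of MR1, near 0, reversed to -0.0055 with quantile normalization. The cause of these shifts was not tested.

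No array was left out in turn, since 3 arrays leave no residual degree of freedom for line and treatment. The labels give no replicate numbers, so no block on them was fitted, and the CAPE fit itself sets each CAPE array against the DMSO array of its line. The medians over the 9 genes moved by less than the median residual SD of 0.0937 under each change of filter, scaling or probe set tried.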
